A study of Mus musculus with 4 samples.

Results

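The interferon-stimulated genes are the genes that cells switch on when an interferon binds its receptor. A list of 37 of them was found among the 21889 genes measured in 4 mouse leukaemia cell lines. This list and the other gene lists below were chosen with earlier results of these data known. Shares of all genes set beside their counts are therefore a description and not independent support. The lines are B140H and B117H, which are highly resistant to cytarabine (Ara-C), and B140P and B117P, the sensitive parental lines. Ara-C is a deoxycytidine analogue that blocks DNA synthesis. All 4 lines are acute myeloid leukaemia lines from BXH-2, an inbred mouse strain whose endogenous retrovirus brings about myeloid leukaemia. B140H was made from B140P and B117H from B117P by exposure to rising amounts of Ara-C, and the lines were grown without the drug. By the labels, the IC50 of Ara-C was about 60 µg/ml for B140H and 110 ng/ml for B140P, and of about 160 µg/ml for B117H and 150 ng/ml for B117P. B140H with B140P is called lineage B140 below, and B117H with B117P lineage B117.

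Each line was sequenced as 1 RNA library, so no value has a replicate error and no difference within a lineage has a replicate check. The deposited unit is FPKM, the fragments of a gene scaled by its transcript length and by the library's total. The spacing of low values put the depth at between 19220000 and 24500000 fragments per library, so that a 2 kb transcript with 3 fragments would be listed at 0.0612 to 0.0780 FPKM. Ratios are log2 of (FPKM + 1) over (FPKM + 1), a scale that understates the change of low genes. A gene "rose" or "fell" here when this ratio reached 2-fold, which is a rule of size and not a test. In bulk RNA, fewer cells of a kind and less RNA per cell cannot be told apart. The lineages may have been normalised separately, since the listed spans of 6 genes differed between them and none within a lineage, and this is a limit of every level compared across lineages.

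The lines were checked against cell type markers. The pan-leukocyte gene Ptprc was listed at between 50.1 and 89.0 FPKM and the myeloid factor gene Spi1, under its older symbol Sfpi1, at between 76.6 and 111 FPKM in the 4 lines. All 9 myeloid markers reached 1 FPKM in B117H and B117P, against 5 in B140H and 6 in B140P, and their summed level was 180 FPKM in B140H, 159 FPKM in B140P, 943 FPKM in B117H and 1944 FPKM in B117P. Mpo, the myeloperoxidase gene, was at 0.913 and 10.4 FPKM in B140H and B140P, against 473 and 1450 FPKM in B117H and B117P, and Kit was listed at 0 in both B140 lines. The 5 B cell markers summed to 80.5 FPKM in B140H and 51.9 FPKM in B140P, nearly all of it Cd79a and Cd79b, against 0.611 FPKM in B117H and 2.07 FPKM in B117P. The 7 plasmacytoid dendritic cell markers, which include the member Bst2, summed to 127 FPKM in B140H and 115 FPKM in B140P, against 64.7 FPKM in B117H and 77.9 FPKM in B117P. Most of that sum was Bst2, and the other 6 summed to 27.4 FPKM in B140H and 39.1 FPKM in B140P, against 29.6 FPKM in B117H and 25.5 FPKM in B117P. They did not move together. Siglech, their defining marker, was at 11.2 and 18.1 FPKM in B140H and B140P and at 0.795 and 0.537 FPKM in B117H and B117P, while Tlr7 was at 0.0108 and 0.0836 FPKM in B140H and B140P and at 4.27 and 5.34 FPKM in B117H and B117P. Tlr9 was at 1.08 and 0.558 FPKM in B140H and B140P, against 1.31 and 1.405 FPKM in B117H and B117P. Tcf4 was at 15.1 and 20.4 FPKM in B140H and B140P, against 23.2 and 18.2 FPKM in B117H and B117P. Among 6 T and NK markers Cd3e and Ncr1 were listed at 0 in all lines, and the summed level, 0.149 and 0.0624 FPKM in B140H and B140P against 70.5 and 75.1 FPKM in B117H and B117P, was almost wholly Nkg7. The 5 stromal markers summed to at most 0.159 FPKM. Mpo, Kit, Nkg7 and Tlr7 were lower in the B140 lines, as were many of the members described below. Siglech, Cd79a and Cd79b were higher there, and Ptprc, Spi1 and Tcf4 differed by less than 2-fold between the lineages. The myeloid sum was also lower in B117H than in B117P, beside the falls of members there, and nearly all of that drop was Mpo. The other myeloid markers went both ways. Fcgr3 fell by the rule, at 1.31 FPKM in B117H and 5.48 FPKM in B117P, a log2 ratio of -1.49. Csf1r was at 12.8 and 22.5 FPKM, a ratio of -0.77. Spi1 was at 81.3 FPKM in B117H and 111 FPKM in B117P, and Cebpa was also lower in B117H. Ptprc was at 89.0 and 74.5 FPKM and Kit at 34.2 and 29.9 FPKM, and Itgam and Cd34 were also higher in B117H. The part of these markers in the lineage differences or in the falls was not tested.

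Type I interferons act through a receptor made of Ifnar1 and Ifnar2, the kinases Jak1 and Tyk2, and a complex with Stat2 and Irf9 that binds the interferon-stimulated response element (ISRE) in the promoters of its targets. Interferon-gamma acts through Ifngr1 and Ifngr2 and on promoters with the gamma-activated site (GAS). The products sense viral nucleic acid, degrade or sequester viral RNA, block budding and feed back on the pathway. Myeloid cells keep many of these genes at a low basal level without infection.

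The promoters of 7 members are shown first, as examples of the patterns described below, as 150 bases before the RefSeq transcription start in the GRCm38.p6 build, read 5′ to 3′ on the gene's strand. Capitals mark matches to the ISRE core, which is GAAA, any 2 bases, then GAAA, on either strand. Isg15 and Oas3 fell in B117H, Xaf1 fell in B140H, Oas1a and Gbp3 were expressed in lineage B117 and nearly absent from lineage B140, and Bst2 and Irgm1 were expressed in all 4 lines. The sequences are of the C57BL/6J reference and not of the lines themselves.
Isg15, chr4:156200819-156200968, minus strand: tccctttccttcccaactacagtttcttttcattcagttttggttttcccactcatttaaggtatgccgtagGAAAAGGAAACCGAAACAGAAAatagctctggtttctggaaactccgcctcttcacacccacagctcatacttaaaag
Oas3, chr5:120777660-120777809, minus strand: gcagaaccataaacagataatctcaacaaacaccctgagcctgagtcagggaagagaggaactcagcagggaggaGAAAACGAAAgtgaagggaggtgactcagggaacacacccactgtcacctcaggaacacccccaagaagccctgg
Xaf1, chr11:72301479-72301628, plus strand: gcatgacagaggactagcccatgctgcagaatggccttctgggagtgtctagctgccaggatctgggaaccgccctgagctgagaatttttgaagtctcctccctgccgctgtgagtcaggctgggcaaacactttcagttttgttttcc
Oas1a, chr5:120907526-120907675, minus strand: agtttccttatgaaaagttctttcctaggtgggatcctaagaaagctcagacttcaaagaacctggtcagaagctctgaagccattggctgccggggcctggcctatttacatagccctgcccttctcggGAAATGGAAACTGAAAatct
Gbp3, upstream start, chr3:142559894-142560043, plus strand: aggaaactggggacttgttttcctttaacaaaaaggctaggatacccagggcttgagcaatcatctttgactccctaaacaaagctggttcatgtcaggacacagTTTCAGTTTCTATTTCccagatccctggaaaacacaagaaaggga
Bst2, chr8:71537473-71537622, minus strand: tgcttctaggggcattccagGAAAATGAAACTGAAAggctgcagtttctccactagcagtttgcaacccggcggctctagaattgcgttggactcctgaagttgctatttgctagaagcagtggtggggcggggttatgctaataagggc
Irgm1, chr11:48871421-48871570, minus strand: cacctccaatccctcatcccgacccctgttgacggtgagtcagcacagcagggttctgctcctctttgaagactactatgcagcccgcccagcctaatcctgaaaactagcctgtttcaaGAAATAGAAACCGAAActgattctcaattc
Isg15 has 3 overlapping matches and Gbp3, Oas1a, Bst2 and Irgm1 have 2 overlapping matches each, while Oas3 has 1 and Xaf1 none. Over the whole RefSeq window, 250 bases before the start to 50 after it, 15 of the 28 members with an entry held an ISRE core in at least 1 window, 53.6%, against 3.99% of all 27025 genes with an entry. The GAS motif, TTC, any 3 bases, then GAA, which reads the same on both strands, was in 7 of the 28 members against 9.55% of all genes, and in Bst2 it overlaps an ISRE core. Members with an ISRE core include Bst2, Irgm1 and Eif2ak2, which were expressed in all 4 lines, as well as Oas1a, Gbp2 and Gbp3, which were not. Of the 5 interferon-gamma GTPase genes, 4 held an ISRE core and Igtp alone a GAS motif. These matches are a description of letters and not of binding. Usp18, Rtp4, Oas2, Mx1, Mx2, Parp9, Parp14, Dhx58 and Zbp1 had no entry.

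The first comparison asks which members set each resistant line apart from its parent. In B117H, 6 of the 37 members fell and none rose, and the 6 are Isg15, Usp18, Rtp4, Oas2, Oas3 and Oasl1. Among all 21889 genes 1.63% fell in that comparison and 0.818% rose. Of the members, 26 had a ratio below 0 and 11 above it, where 33.2% of all 21889 genes were below 0. The members' median log2 ratio was -0.34, beside a median of 0 over all 21889 genes. The share and median over all genes take in genes listed at 0 in both lines, whose ratio is 0. No member was listed at 0 in B117H, so this background overstates the tilt of the members. Values over expressed genes are given below. In B140H, 1 of the 37 fell, Xaf1, and none rose, beside 0.795% and 1.13% of all genes, and the members' median was 0.031. On this scale only a gene at 1 FPKM or more in the parental line can fall, and 16 members were so in B140P against 32 in B117P. A minimum mean of 1 FPKM over the 4 libraries was met by 10066 genes and 25 members, and left 3 falls in B117H, beside 3.21% of those genes, and 1 in B140H, beside 1.63%. The members' medians were then -0.18 in lineage B117 and 0.032 in lineage B140, beside -0.026 and 0.11 over the 10066 genes. In lineage B117, 16 of these 25 members had a ratio below 0, beside 53.4% of the 10066 genes.

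**Figure D1:**
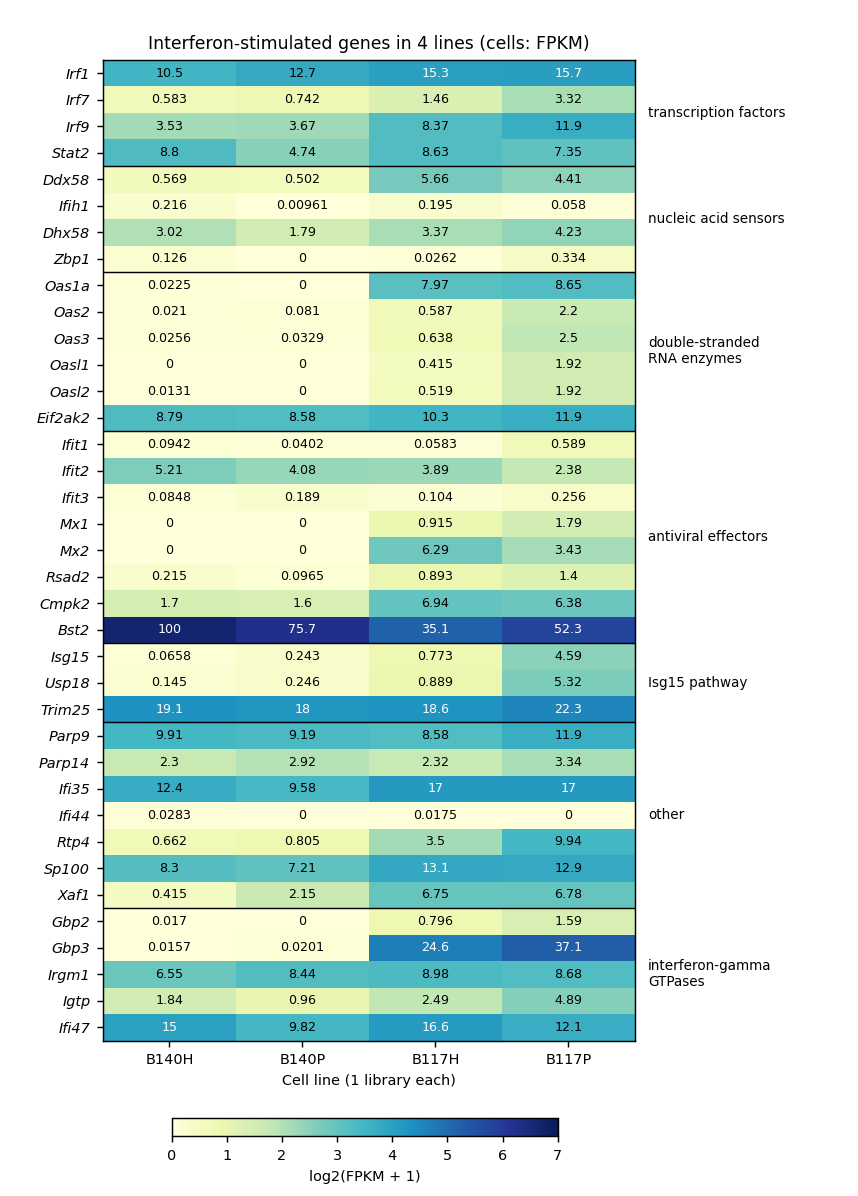
FPKM of the 37 interferon-stimulated genes (rows, by role) in the 4 lines (columns, 1 library each), with the colour giving log2(FPKM + 1). The B140H and B140P columns are nearly empty for Oas1a, Oas2, Oas3, Oasl1, Oasl2, Mx1, Mx2, Gbp2 and Gbp3, while Bst2, Trim25, Eif2ak2, Irf1 and Ifi47 are filled in all 4.

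Usp18 and Isg15, of the Isg15 pathway, had the largest falls in B117H by log2 ratio of (FPKM + 1). Ifit1 and Zbp1 kept smaller shares of the parental FPKM, 9.89% and 7.84%. These 2 genes were below 1 FPKM in B117P, where the rule could not call them. Isg15 encodes a ubiquitin-like protein that is attached to other proteins after interferon, and Usp18 the protease that removes it and damps signalling from the type I receptor. Isg15 was at 0.773 FPKM in B117H and 4.59 FPKM in B117P, a log2 ratio of -1.66, and at 0.0658 FPKM in B140H and 0.243 FPKM in B140P. B117H had 16.8% of the parental FPKM, with an exact 95% Clopper-Pearson interval of 7.72% to 30.4% from an estimated 11 and 77 fragments. Usp18 was at 0.889 FPKM in B117H and 5.32 FPKM in B117P, a log2 ratio of -1.74, and at 0.145 FPKM in B140H and 0.246 FPKM in B140P. Its share was 16.7% of the parental FPKM, with an interval of 11.1% to 24.5%. Such intervals cover counting error in 2 libraries only, not the spread between cultures. Both genes were low in B117H and in both B140 lines and high in B117P alone. Trim25, a ubiquitin ligase that acts on the RNA sensor RIG-I, was at 19.1, 18.002, 18.6 and 22.3 FPKM in B140H, B140P, B117H and B117P and did not pass the rule. In the mm9 build used by the files, Isg15 is listed on chromosome 4 from 155573533 to 155574927 and Usp18 on chromosome 6 from 121195924 to 121220935.

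The double-stranded RNA enzymes were lower in B117H without exception in sign, and 3 of the 6 passed the rule. The 2′-5′ oligoadenylate synthetases Oas1a, Oas2 and Oas3 make the messenger that activates RNase L, and Oasl1 and Oasl2 are related proteins. Oas2 was at 0.587 FPKM in B117H and 2.20 FPKM in B117P, and Oas3 at 0.638 and 2.50004 FPKM, with log2 ratios of -1.01 and -1.10. Oasl1 was at 0.415 FPKM in B117H and 1.92 FPKM in B117P, a log2 ratio of -1.04, and Oasl2 at 0.519 and 1.92 FPKM had a ratio of -0.94. B117H had 26.7% of the parental FPKM for Oas2, 25.5% for Oas3, 21.6% for Oasl1 and 27.0% for Oasl2, with upper bounds of the counting interval between 33.9% and 40.1%. These 4 genes were all below 1 FPKM in B117H, between 1.92 and 2.50004 FPKM in B117P, and below 0.1 FPKM in B140H and B140P. In those lines Oas2 was at 0.0210 and 0.0810 FPKM, Oas3 at 0.0256 and 0.0329 FPKM and Oasl2 at 0.0131 FPKM and 0, while Oasl1 was listed at 0 in both. Oas1a stood apart from them, at 7.97 FPKM in B117H and 8.65 FPKM in B117P, although its reads can be shared with close paralogs such as Oas1g. Eif2ak2, which encodes the kinase PKR that halts translation, was at 8.79, 8.58, 10.3 and 11.9 FPKM in B140H, B140P, B117H and B117P.

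Rtp4 fell in B117H and Xaf1 in B140H. Rtp4, an interferon-induced chaperone of membrane receptors, was at 3.50 FPKM in B117H and 9.94 FPKM in B117P, a log2 ratio of -1.28, and at 0.662 FPKM in B140H and 0.805 FPKM in B140P. Rtp4 lies on chromosome 16, where the median log2 ratio of 328 expressed genes was -0.47 in lineage B117, and after the median of its 25 nearest expressed neighbours was subtracted its ratio was -0.78, within the rule. The same subtraction in lineage B117 took Mx2, also on chromosome 16, to 1.17 and Gbp3 on chromosome 3 to -1.21, both past the rule, so that 1 member was higher and 3 were lower among the 25 that met the minimum. Xaf1 encodes a binding partner of the apoptosis inhibitor XIAP. It was at 0.415 FPKM in B140H and 2.15 FPKM in B140P, a log2 ratio of -1.15, and at 6.75 FPKM in B117H and 6.78 FPKM in B117P. B140H had 19.3% of the parental Xaf1 level, with a counting interval of 11.9% to 29.5%. Xaf1 had a log2 ratio of -0.01 in lineage B117. The 6 members that fell in B117H had ratios between -0.22 and 0.00 in lineage B140, where none of them reached 1 FPKM in either line. A gene below 1 FPKM in the parental line cannot reach a 2-fold fall on this scale. The rule therefore could not call these 6 in lineage B140, and whether they also fell there is not answered by it. The precision there differed by gene. Rtp4 in B140H had 82.2% of the level in B140P, with a counting interval of 47.1% to 140% that lies above the 35.2% of the parental level left in B117H. Isg15 in B140H had 27.0% of the level in B140P, from an estimated 1 and 4 fragments and with a counting interval of 0.398% to 198%.

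**Figure D2:**
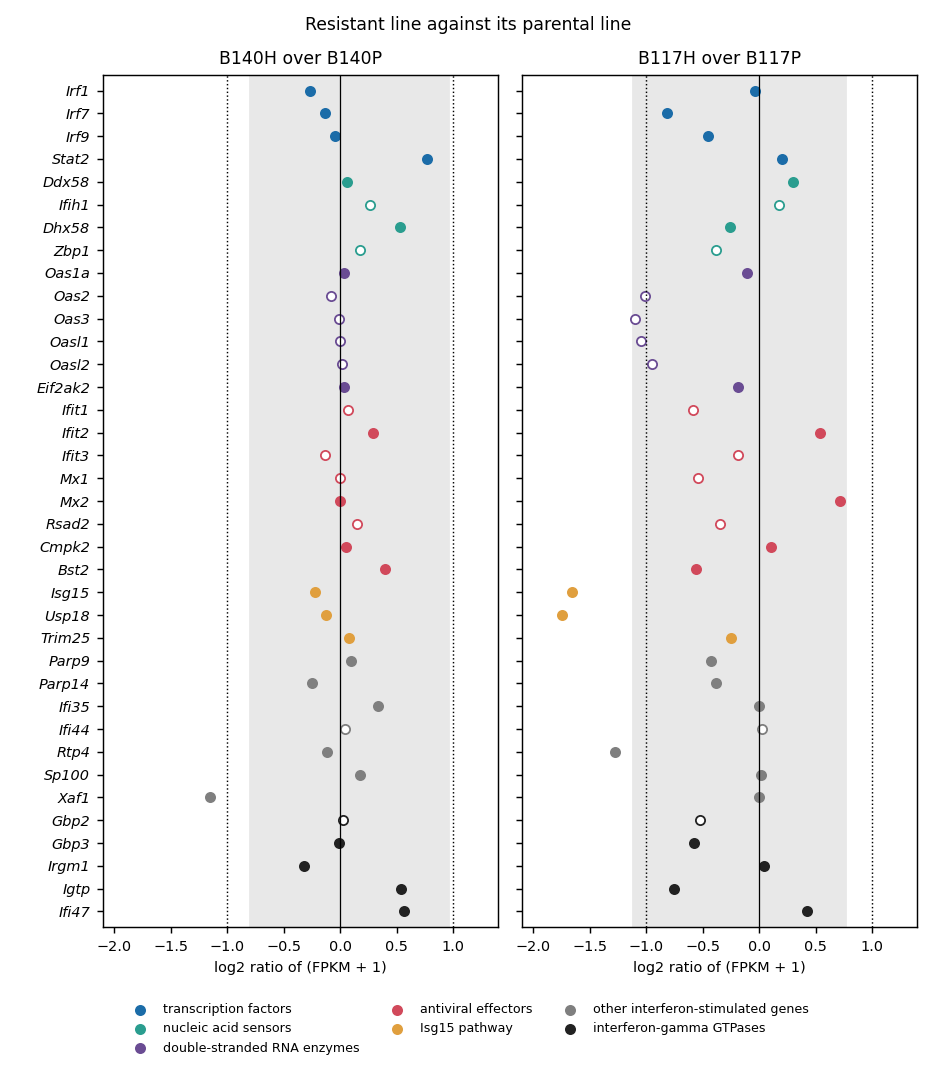
Log2 ratio of (FPKM + 1) of each member in B140H over B140P (left) and B117H over B117P (right), coloured by role, with filled points for the 25 members with a mean of 1 FPKM or more and open points for the other 12. Dotted lines mark 2-fold and the grey band holds the central 95% of the 10066 expressed genes, and Isg15, Usp18 and Rtp4 on the right and Xaf1 on the left lie outside it on the low side.

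The transcription factors, sensors and remaining effectors did not pass the rule within a lineage. Irf7, the factor that amplifies interferon production, was at 1.46 FPKM in B117H and 3.32 FPKM in B117P, a log2 ratio of -0.81, and at 0.583 FPKM in B140H and 0.742 FPKM in B140P. Irf9, the DNA-binding subunit of the type I complex, was at 3.53 and 3.67 FPKM in B140H and B140P and at 8.37 and 11.9 FPKM in B117H and B117P. It passed the rule only across lineages, with log2 ratios of -1.46 for B140P over B117P and -1.05 for B140H over B117H. Its partner Stat2 was at 8.63 FPKM in B117H and 7.35 FPKM in B117P, and at 8.80 FPKM in B140H and 4.74 FPKM in B140P. Irf1, a factor induced by interferon-gamma, was at 10.5, 12.7, 15.3 and 15.7 FPKM in B140H, B140P, B117H and B117P. Some effectors differed in the opposite direction from Isg15 in lineage B117. Mx2, a GTPase that blocks cytoplasmic viruses, was at 6.29 FPKM in B117H and 3.43 FPKM in B117P, a log2 ratio of 0.72, while its neighbour Mx1 was at 0.915 and 1.79 FPKM, a ratio of -0.54. Ifit2, an RNA-binding protein, was at 3.89 FPKM in B117H and 2.38 FPKM in B117P, while its relative Ifit1 was at 0.0583 and 0.589 FPKM, an estimated 3 and 35 fragments. The members therefore did not move as a single block in B117H.

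Across the lineages the members were lower in B140P than in B117P. Of the 37, 19 passed the 2-fold rule as lower in B140P and none as higher, where 5.54% of all 21889 genes were lower and 2.84% higher, and the members' median log2 ratio was -1.13 beside 0 over all genes. Among the 25 members with a mean of 1 FPKM or more, 12 were lower, beside 10.8% of expressed genes. A gene that reaches this mean only through the B117 lines had to differ, among the members and the expressed genes alike. The count over all 37 avoids this minimum. Its background takes in genes below 1 FPKM in B117P, which cannot be lower by the rule, while 32 members reached 1 FPKM there. Neither background is matched to the level of the members. Between the resistant lines, 8 of the 37 were lower in B140H than in B117H and 1 was higher, beside 4.91% and 4.71% of all genes, and the median was -0.51. All 8 were also among the 19, so they are 8 of 8 of the second list and 8 of 19 of the first. The overlap among all genes was not counted, so this overlap has no background. A TPM scale without small RNA genes was also read, where 1 TPM equals between 0.452 and 0.535 FPKM. On it 17 members were lower in B140H than in B117H and 1 was higher, among 32 members that met the minimum. The added 1 is smaller there in FPKM, which widens the ratios of low genes, and a member can meet the minimum through the B117 lines. The share of all genes past 2-fold on this scale was not taken, so this count has no background. The lines differed more widely in general across lineages than within them, with a Pearson correlation of log2(FPKM + 1) over expressed genes of 0.81 for B140P with B117P and 0.83 for B140H with B117H, against 0.94 within lineage B140 and 0.91 within lineage B117. This is a description across genes.

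Gbp3 and Oas1a had the widest gaps between the lineages, in log2 ratio, for both the parental and the resistant lines. Rtp4 came next between the parental lines, at -2.60, and Mx2 between the resistant lines, at -2.87. Gbp3, a guanylate-binding GTPase that attacks the vacuoles of intracellular pathogens, was at 0.0157 FPKM in B140H and 0.0201 FPKM in B140P, an estimated 1 fragment in each, and at 24.6 FPKM in B117H and 37.1 FPKM in B117P. Its log2 ratio was -5.22 for B140P over B117P and -4.66 for B140H over B117H. Oas1a was at 0.0225 FPKM in B140H and listed at 0 in B140P, against 7.97 and 8.65 FPKM in B117H and B117P, ratios of -3.27 for the parental lines and -3.13 for the resistant ones. Mx1 and Mx2 were listed at 0 in both B140 lines, as was Oasl1. In total 3 members were listed at 0 in B140H and 8 in B140P, against none in B117H and 1 in B117P, and 12 members were below 0.3 FPKM in both B140 lines while reaching 1 FPKM in B117P. The same counts over all genes were not taken, so these have no background. Ddx58, which encodes the RNA sensor RIG-I, was at 0.569 and 0.502 FPKM in B140H and B140P and at 5.66 and 4.41 FPKM in B117H and B117P, with ratios of -1.85 and -2.09 for the parental and the resistant lines. Cmpk2, a mitochondrial nucleoside monophosphate kinase, was at 1.70, 1.60, 6.94 and 6.38 FPKM in B140H, B140P, B117H and B117P. Its neighbour on chromosome 12, Rsad2, which encodes the antiviral radical enzyme viperin, was at 0.215, 0.0965, 0.893 and 1.403 FPKM in the same order, and passed the rule between the parental lines only.

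Bst2 was the only member higher in a B140 line by the rule. It encodes tetherin, which holds budding retroviruses at the cell surface, and it was at 100.004 FPKM in B140H and 75.7 FPKM in B140P, against 35.1 FPKM in B117H and 52.3 FPKM in B117P. Its log2 ratio was 1.48 between the resistant lines, 0.52 between the parental lines, 0.40 within lineage B140 and -0.56 within lineage B117. It had the highest FPKM of the 37 members in each of the 4 lines.

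**Figure D3:**
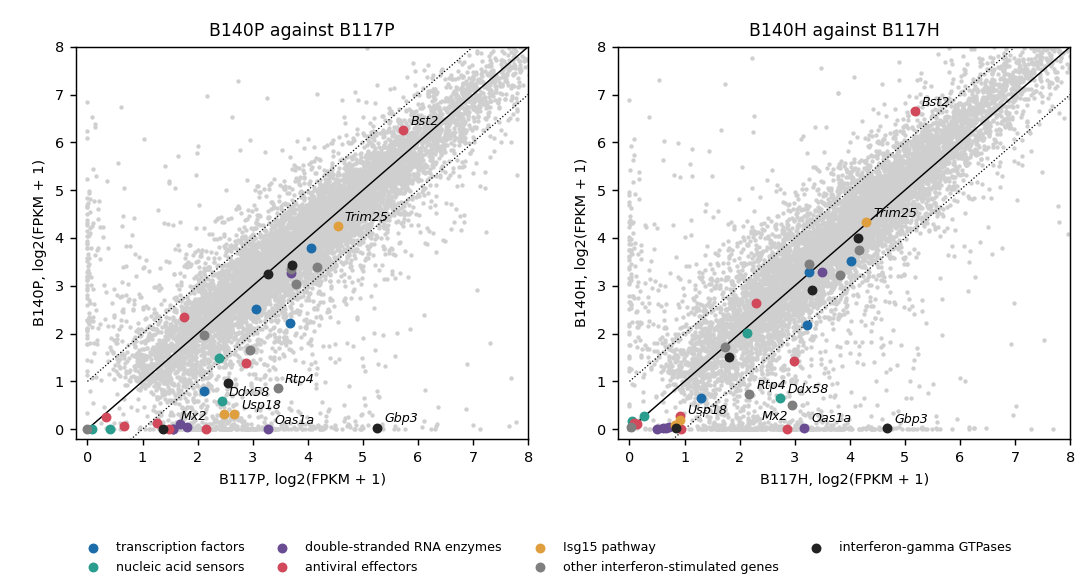
Log2(FPKM + 1) in B140P against B117P (left) and in B140H against B117H (right), with members coloured by role and the 10066 expressed genes in grey, up to 8 on each axis. The solid line marks equal levels and the dotted lines 2-fold, and Gbp3, Oas1a and Mx2 lie along the bottom of both panels while Bst2 and Trim25 stay near the diagonal on the left.

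Of the 17 members that passed the rule in none of the 4 comparisons, 12 were at 1 FPKM or more in every line and 5 were below 1 FPKM in every line. The 12 include Trim25, Eif2ak2, Irf1, Sp100, a protein of nuclear PML bodies at between 7.21 and 13.1 FPKM, and Ifi35, an interferon-induced leucine zipper protein at between 9.58 and 16.99 FPKM. Parp9 and Parp14, ADP-ribosyltransferase family proteins, were at between 8.58 and 11.9 FPKM and between 2.30 and 3.34 FPKM, but Parp9 shares its listed span with Dtx3l. Dhx58, a helicase that tunes RIG-I signalling, was at between 1.79 and 4.23 FPKM. The 5 low genes are Ifih1, which encodes the RNA sensor MDA5, the Z-nucleic acid sensor gene Zbp1, Ifit1, Ifit3 and Ifi44, and their highest value was 0.589 FPKM.

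The sensors and effectors of the type I response were compared with the interferon-gamma GTPases. The first group holds 18 members, namely the nucleic acid sensors, the double-stranded RNA enzymes and the antiviral effectors, and the second holds Gbp2, Gbp3, Irgm1, Igtp and Ifi47. The GTPases had the higher median level in each line, at 1.84 FPKM in B140H, 0.960 FPKM in B140P, 8.98 FPKM in B117H and 8.68 FPKM in B117P, while the sensors and effectors had medians of 0.110, 0.0606, 0.904 and 2.29 FPKM in that order. In B117H, 3 of the 18 sensors and effectors and none of the 5 GTPases fell, beside 1.63% of all genes, and this difference between the roles was not tested. Their median log2 ratios over all their members were -0.30 and -0.53 in lineage B117 and 0.042 and 0.024 in lineage B140. The differences between these medians were thus 0.23 and 0.018, and between the lineages they were 0.066 for the parental lines and -0.14 for the resistant lines. Each comparison sets 1 library against 1, so the differences of medians have no test. Over the members with a mean of 1 FPKM or more the differences were 0.27 in lineage B117 and -0.21 in lineage B140.

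Among the 5 GTPase genes, Irgm1, an immunity-related GTPase that controls autophagy of pathogens, was at 6.55, 8.44, 8.98 and 8.68 FPKM in B140H, B140P, B117H and B117P. Ifi47 was at 14.97 FPKM in B140H, 9.82 FPKM in B140P, 16.6 FPKM in B117H and 12.1 FPKM in B117P, but its listed span overlaps those of 4 other listed genes. Igtp was at 1.84 and 0.960 FPKM in B140H and B140P and at 2.49 and 4.89 FPKM in B117H and B117P, with log2 ratios of 0.54 in lineage B140 and -0.75 in lineage B117. Gbp2 was at 0.0170 FPKM in B140H and listed at 0 in B140P, against 0.796 and 1.59 FPKM in B117H and B117P, so both guanylate-binding members were nearly absent from lineage B140 while Irgm1 and Ifi47 were expressed in it.

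**Figure D4:**
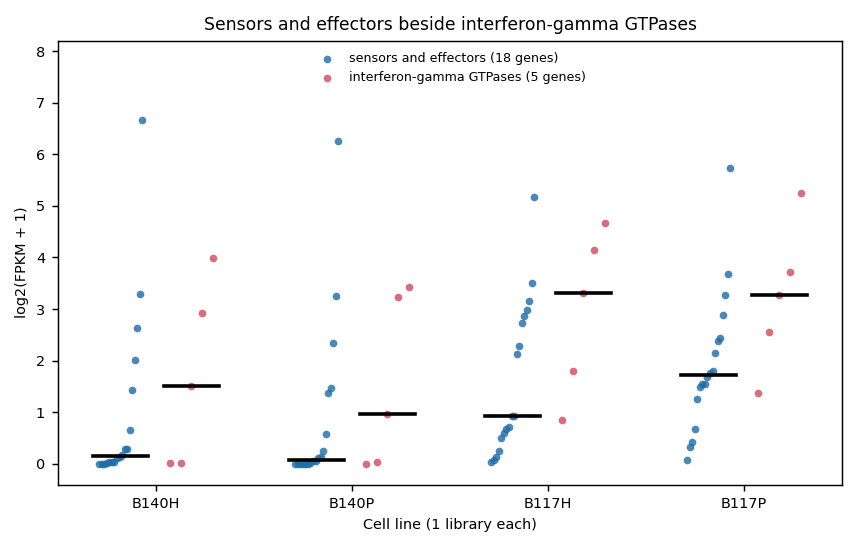
Log2(FPKM + 1) of the 18 sensors and effectors (blue) and the 5 interferon-gamma GTPases (red) in each line, 1 point per gene, with bars at the medians. The bar of the GTPases is above that of the sensors and effectors in each of the 4 lines, and both bars are lower in B140P than in B117P and in B140H than in B117H.

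Other genes of the pathway were read from lists that do not share members with the 37. Interferon genes themselves were at or near 0. Of 14, 12 were listed at 0 in B140H, B140P and B117H and 13 in B117P, and the highest value of any of them in any line was 0.147 FPKM. Ifnb1, the interferon-beta gene, was listed at 0.136 FPKM in B117P and at 0 elsewhere. Of the 6 receptor genes, 2 fell in B117H and 1 rose in B140H, beside 1.63% and 1.13% of all genes. Ifnar2 was at 28.6 FPKM in B117H and 58.3 FPKM in B117P, and Ifngr2 at 9.51 and 21.9 FPKM, with log2 ratios of -1.003 and -1.12. Both lie on chromosome 16 with 25-gene neighbourhoods at a median of -0.58, and after subtraction their ratios were -0.43 and -0.55. Il10rb, a subunit of the interferon-lambda receptor, was at 21.8 FPKM in B140H and 10.4 FPKM in B140P, a ratio of 1.01, or 0.65 and within the rule after its neighbours' median of 0.36 was subtracted. Of the 5 kinase and STAT genes none passed the rule within a lineage.

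Among 7 negative regulators none passed the rule within a lineage. Socs3, which blocks JAK kinases, came nearest, at 0.225 FPKM in B117H and 1.31 FPKM in B117P, a log2 ratio of -0.91. Among 14 genes of the steps to interferon induction, Irf8 alone passed it, and in both lineages. It fell in B117H, as did 1.63% of all genes, and rose in B140H, as did 1.13%. Irf8 is a myeloid and dendritic cell interferon regulatory factor, and BXH-2 mice are known to carry a missense allele of it. It was at 199.8 FPKM in B140H and 88.5 FPKM in B140P, a ratio of 1.17, and at 57.2 FPKM in B117H and 118.6 FPKM in B117P, a ratio of -1.04. The cytosolic DNA sensor gene Mb21d1, listed as E330016A19Rik, was at 11.3 FPKM in B140H and 17.7 FPKM in B140P, and at 8.34 and 9.31 FPKM in B117H and B117P.

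Among 13 further Gbp and Irg GTPase genes, 2 rose in B117H and none fell, beside 0.818% and 1.63% of all genes. The pair lies in the chromosome 5 cluster of Gbp genes. Gbp11 was at 5.06 FPKM in B117H and 0.674 FPKM in B117P, a log2 ratio of 1.86, and at 4.22 FPKM in B140H and 2.39 FPKM in B140P. Gbp10 was at 2.07 FPKM in B117H and 0.0639 FPKM in B117P, a ratio of 1.53, and below 0.05 FPKM in lineage B140. Their neighbours Gbp4 and Gbp9 were at 0.942 and 0.821 FPKM in B117H and at 0.0300 and 0.174 FPKM in B117P. Reads can be divided among these close paralogs, so the gene carrying the rise is uncertain. The chromosome 3 genes Gbp2, Gbp3, Gbp5 and Gbp6 had ratios between -0.57 and -0.22 in lineage B117, and Gbp1 was listed at 0 in all lines. Among 30 further interferon-stimulated genes, 1 fell in B117H and none rose, beside 1.63% and 0.818% of all genes. None passed the rule in B140H, where 0.795% of all genes fell and 1.13% rose. The gene that fell was Ifi30, a lysosomal thiol reductase, at 0.569 FPKM in B117H and 11.1 FPKM in B117P, a ratio of -2.95. Ifi30 was at 2.52 FPKM in B140H and 4.16 FPKM in B140P. Ifi204, a DNA-binding protein of the p200 family, was at 0.270 FPKM in B117H and 1.51 FPKM in B117P, a ratio of -0.98, and Ube2l6, the conjugating enzyme of Isg15, was at 8.08 and 4.01 FPKM, a ratio of 0.86. Between the parental lines 7 of the 30 were lower in B140P and none higher, and between the resistant lines 9 were lower in B140H and 1 higher. Beside these, 5.54% of all genes were lower and 2.84% higher between the parental lines, and 4.91% and 4.71% between the resistant lines. Trim30a, a TRIM family gene, was at 1.04 FPKM in B140H and 0.208 FPKM in B140P, against 7.18 and 6.63 FPKM in B117H and B117P.

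**Figure D5:**
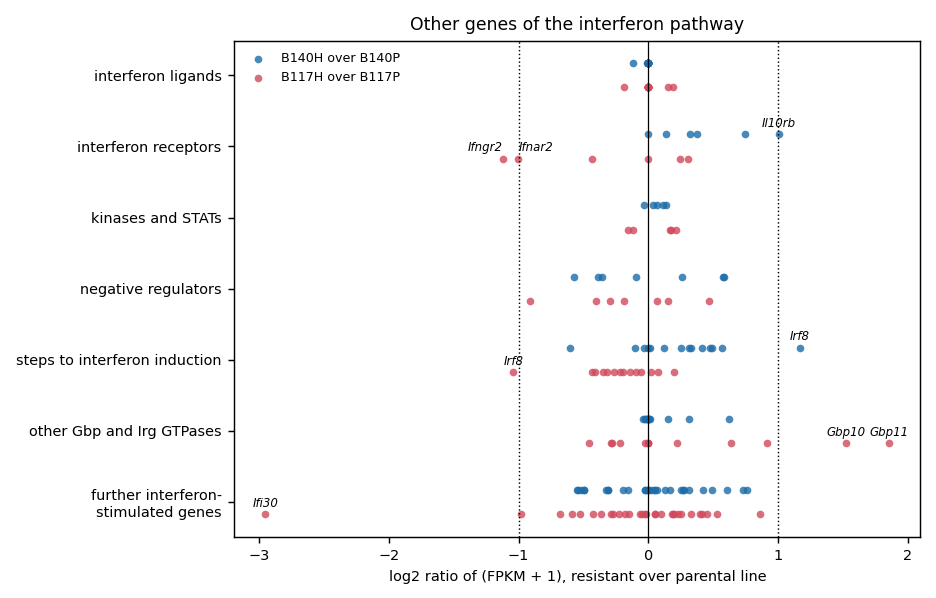
Log2 ratio of (FPKM + 1) for other genes of the interferon pathway, by list (rows), in B140H over B140P (blue) and B117H over B117P (red), 1 point per gene and dotted lines at 2-fold. Ifi30, Ifngr2, Ifnar2 and Irf8 are past the rule on the low side in B117H, Gbp10 and Gbp11 on the high side, and Irf8 and Il10rb on the high side in B140H.

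With both lineages in 1 fit, limma with the lineage as a block and Benjamini-Hochberg adjustment called 0 of 10066 expressed genes for resistant over sensitive lines, a share of 0.0%, and 218 had an unadjusted p under 0.05, 2.17%. None of the 25 members tested was called or had an unadjusted p under 0.05. The fit has 1 residual degree of freedom. Isg15 averaged -0.94 on the log2 scale (standard error 0.44) and was lower in 2 of 2 resistant lines, with a limma adjusted p of 0.9995. In lineage B140 its ratio of -0.22 rests on an estimated 1 and 4 fragments, so the sign there is uncertain. Ifi47 averaged 0.49 (standard error 0.23) and was higher in 2 of 2 resistant lines, with the same adjusted p as Isg15.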

How the data were processed

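RNA-seq of 4 lines, 1 library each, was read from the FPKM values per gene that the authors deposited. Reads were aligned with TopHat2 2.0.4 to mm9 and quantified with Cuffdiff, per the submitters' processing notes, and no counts were used here. Listed starts were raised by 1 to count from 1. Ratios are log2((FPKM + 1)/(FPKM + 1)). The rule was 2-fold, and the design set counts among genes with a mean of at least 1 FPKM. The counts over all 37 members lead, since a member can meet that minimum through 1 lineage. The expressed genes were fitted with limma 3.58.1 (R 4.3.3), with a mean-variance trend and the lineage as a block. The same fit was run on simulated data with independent noise and no lineage differences. That setting differs from these lines, so it does not show how the fit performs on them. The pairing is from the labels, since each resistant line derives from its parental line. Members and lists were chosen with earlier results of these data known. Members past 2-fold in any comparison, up to 20, are given in full, and up to 4 genes with the largest within-lineage ratio from each pathway list, plus Irf8. Some genes that this rule or the marker lists take in are not reported here.

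The steps between low FPKM values in 761 genes of 1 transcript and at least 3 kb (GENCODE M21 lengths) gave the depth, and between 71.1% and 81.5% of low values lay within 0.15 of a whole fragment. Fragment numbers and intervals are approximate and cover counting error only. Promoters are RefSeq's. Pathway symbols not used or not found were Gbp7, Helz2, Phf11d and Ifi27.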

Additional observations from a re-analysis of the deposited data

Results flagged for a closer look

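Irf8 passed the 2-fold rule in opposite directions in the lineages. Its log2 ratio was 1.17 for B140H over B140P and -1.04 for B117H over B117P, and the difference between these ratios was not tested, since each line is 1 library. Irf8 was at 199.8 FPKM in B140H and 88.5 FPKM in B140P, and at 57.2 FPKM in B117H and 118.6 FPKM in B117P. In B117H the ratio was -0.998 on a TPM scale, just short of the rule, and in B140H it was 0.94 after the median of its 25 neighbours was subtracted. Of the members, Igtp and Bst2 had ratios of 0.54 and 0.40 in lineage B140 and of -0.75 and -0.56 in lineage B117, all within the rule.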

How the results depend on the processing

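Values here are over members that met the minimum mean of 1 FPKM. The counts past 2-fold were 3 for B117H over B117P, 1 for B140H over B140P, 12 for B140P over B117P and 9 for B140H over B117H. The medians in that order were -0.18, 0.032, -0.91 and -0.51, and the differences of sensors and effectors minus GTPases 0.27, -0.21, -0.27 and -0.54. Settings below list only values that moved. For B117H over B117P, the count was 6 with no minimum, 7 on the TPM scale and 0 with a minimum of 5 FPKM or a 4-fold rule. Its median was -0.34 with no minimum, -0.40 on the TPM scale and -0.050 with 25 neighbours subtracted, and its difference was -0.42 with a minimum of 5 FPKM. For B140H over B140P, the count was 2 with a pseudocount of 0.1 and 0 with a minimum of 5 FPKM or a 4-fold rule. Its median was -0.080 once centred on the median of expressed genes, which was 0.11. Its difference was -0.053 with a pseudocount of 0.1, 0.018 with no minimum, 0.22 with a minimum of 5 FPKM, -0.040 on the TPM scale and 0.056 with neighbours subtracted. For B140P over B117P, the count was 19 with no minimum, 20 on the TPM scale, 2 with a minimum of 5 FPKM and 6 with a 4-fold rule. Its median was -1.20 with a pseudocount of 0.1, -1.13 with no minimum, -0.38 with a minimum of 5 FPKM, -1.70 on the TPM scale and -0.77 with neighbours subtracted. Its difference was 0.066 with no minimum, 0.33 with a minimum of 5 FPKM and 0.013 with neighbours subtracted. For B140H over B117H, the count was 18 on the TPM scale, 3 with a minimum of 5 FPKM and 5 with a 4-fold rule. Its median was -0.31 with a minimum of 5 FPKM, -0.66 once centred (expressed genes had a median of 0.15), -1.04 on the TPM scale and -0.66 with neighbours subtracted. Its difference was -0.67 with a pseudocount of 0.1, -0.14 with no minimum, 1.04 with a minimum of 5 FPKM and -0.27 with neighbours subtracted. Fewer members enter under a stricter minimum and more with none or on the TPM scale, and otherwise the cause was not tested. The share of all genes past 2-fold was not taken on the TPM scale, so its counts have no background. The sign of the role difference thus depends on the setting in all 4 comparisons.

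limma called 0 genes with the replicate block (the lineage), 0 with no replicate block and 4 with a minimum of 5 FPKM. With 1 line left out and no block it called between 0 and 6, the 6 without B140P, where the lone line of a group is assumed to vary like the others. No member was called in any of these fits. The ratios past the 2-fold rule of members that met the minimum and of Irf8 number 28, and 11 of them were also past 4-fold. Under the other settings, 4 of 148 values were under 2-fold, 1 on the TPM scale and 3 with neighbours subtracted, and 0 reversed. Low members such as Oas2, Oas3 and Oasl1 and the other pathway genes are not among the 28. Within a lineage Ifnar2, Ifngr2 and Il10rb came under 2-fold with neighbours subtracted, while Gbp11 and Ifi30 stayed past it. Low members rest on few fragments, which limits what could be seen in lineage B140.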

Other observations

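Host genes that bear on retroviruses were read because BXH-2 leukaemias arise with a replicating murine leukaemia virus, and this list of 8 was chosen after values had been seen. None passed 2-fold within a lineage. Slc7a1, the cationic amino acid transporter that serves as the receptor of ecotropic murine leukaemia viruses, was at 88.5 FPKM in B140H and 84.4 FPKM in B140P, against 30.2 FPKM in B117H and 34.1 FPKM in B117P, with log2 ratios of 1.52 between the resistant lines and 1.28 between the parental lines. The restriction factor gene Apobec3 was at 16.3, 15.4, 13.1 and 14.1 FPKM in B140H, B140P, B117H and B117P. Fv1, a mouse capsid restriction gene, was at 2.72 FPKM in B140H, 3.56 FPKM in B140P, 1.21 FPKM in B117H and 2.71 FPKM in B117P. Samhd1, a dNTP hydrolase that also cleaves the active triphosphate of Ara-C, was at 29.7 FPKM in B140H and 27.1 FPKM in B140P, and at 24.2 FPKM in B117H and 21.3 FPKM in B117P, log2 ratios of 0.13 and 0.18 within the lineages.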
